A study of Homo sapiens with 10 samples.

Results

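Epithelial serine proteases and inhibitors of some of them were followed through a loss and a regain of epithelial character in PC3. PC3 is a human prostate cancer cell line. The set held 9 named genes of the 23170 in the gene tables. Of these, 7 encode serine proteases (ST14, PRSS8, PRSS22, TMPRSS4, HPN, KLK6 and KLK10) and 2 encode Kunitz-type inhibitors of such proteases (SPINT1 and SPINT2). The genes were chosen by name and function, with earlier results of these data known. Each had exactly 1 entry in the gene tables.

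The study compared 4 PC3 lines by RNA-seq, with 2 samples of PC3-Epi, 3 of PC3-EMT14, 3 of PC3-EMT14-OVOL1 and 2 of PC3-EMT14-OVOL2. PC3-Epi is a luciferase-expressing population picked for brightness and epithelial shape. PC3-EMT14 is a mesenchymal population recovered after PC3-Epi had been grown together with macrophages. The OVOL lines are PC3-EMT14 cells transduced with lentivirus carrying OVOL1 or OVOL2, zinc-finger transcription factors, and then selected. Both were compared here with PC3-EMT14 itself and not with a line carrying an empty vector. All lines go back to the same PC3-Epi population, and PC3-EMT14 is a single isolated population.

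Matriptase, the product of ST14, is a membrane-anchored protease of epithelial cells that activates other proteins at the cell surface, and prostasin, the product of PRSS8, works with it in the same pathway. SPINT1 and SPINT2 encode hepatocyte growth factor activator inhibitors, transmembrane proteins that block matriptase and related enzymes. The kallikreins KLK6 and KLK10 are secreted proteases encoded in a large gene cluster on chromosome 19.

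The values are FPKM, fragment counts scaled to transcript length and to sequencing depth, and the authors' software gave 1 pooled value for each line in each table. No spread between samples can be taken from them, so every ratio below lacks a replicate check and no test was possible. The depth behind each value is unknown. A gene was counted as higher or lower when the lines differed by at least 2-fold, a log2 ratio of 1, with at least 1 FPKM in the higher line. The same line listed in different tables differed by a constant factor of 1.00 to 1.03, which leaves ratios within a table untouched. Levels are from the table that compares a line with PC3-EMT14, and the PC3-EMT14 level is from the table with PC3-Epi.

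The lines carried the genes their names call for. OVOL1 was at 11.3 FPKM in PC3-EMT14-OVOL1 against 0.0243 in PC3-EMT14, and OVOL2 at 831 FPKM in PC3-EMT14-OVOL2 against 0.383. CDH1, which encodes E-cadherin, was at 1.00 FPKM in PC3-EMT14, 16.2 in the OVOL1 line, 39.2 in the OVOL2 line and 50.6 in PC3-Epi. Of the mesenchymal markers, ZEB1 was at 7.59, 4.25, 1.77 and 0.130 FPKM in that order. VIM, which encodes vimentin, was at 271, 183, 76.9 and 42.5 FPKM. With OVOL1 neither was lower by 2-fold (log2 -0.81 for ZEB1 and -0.53 for VIM), while with OVOL2 and in PC3-Epi both were. Of 5 prostate lineage genes, KLK3, which encodes prostate-specific antigen, was listed at 0 in every line. Of 8 macrophage markers, CD68 was the only gene at 1 FPKM or more in any line, from 13.2 in PC3-Epi to 57.8 with OVOL2, and the other 7 summed to between 0.181 and 0.366 FPKM. The part of the CD68 difference in the results below was not tested. These samples are bulk cultures, in which fewer cells of a kind and less RNA per cell cannot be told apart.

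In PC3-Epi, 5 of the 7 members above 1 FPKM were higher than in PC3-EMT14, namely ST14, PRSS22, KLK6, PRSS8 and SPINT1, beside 7.37% of the 12441 genes compared. KLK10 alone was lower, beside 8.34% of genes. With OVOL1, 3 members were higher than in PC3-EMT14 (ST14, PRSS22 and PRSS8), beside 2.43% of 12197 genes, and 1 was lower (KLK10), beside 1.54%. With OVOL2, the 5 members higher than in PC3-EMT14 were those named for PC3-Epi, beside 4.42% of 12307 genes, and KLK10 was again lower, beside 2.93%. TMPRSS4 and HPN stayed below 1 FPKM in every line. The 3 comparisons share the PC3-EMT14 samples, so a high or low value there enters all of them alike.

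**Figure D1:**
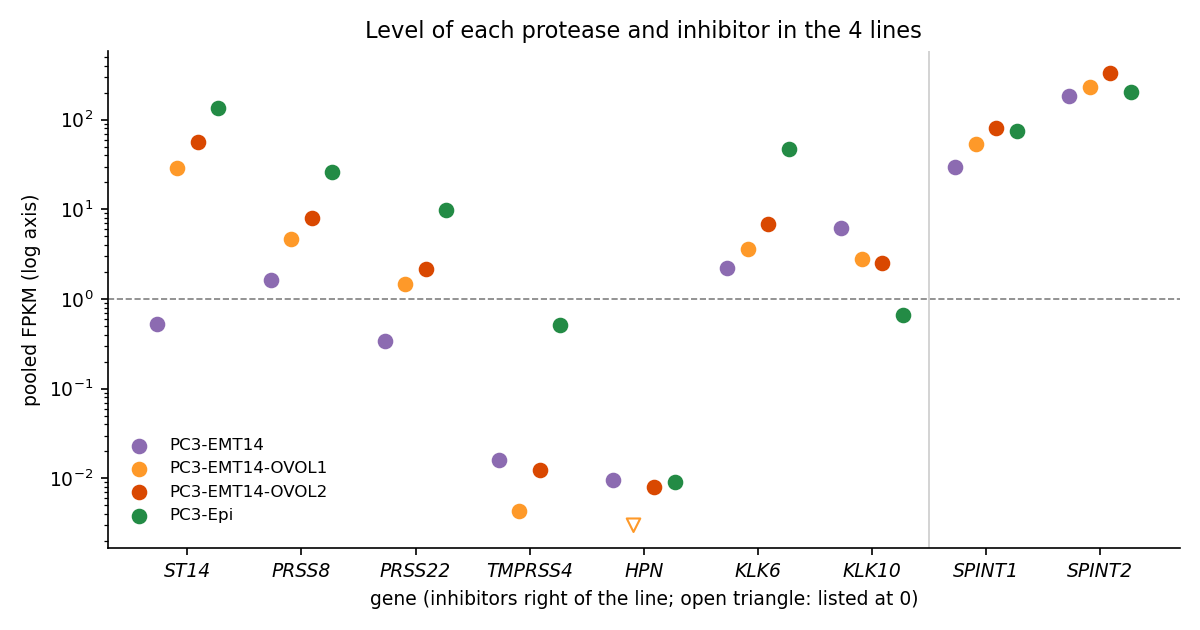
Pooled FPKM (vertical log axis) of the 9 genes in the 4 lines, 1 point a line, with a dashed line at 1 FPKM. ST14 spans from 0.532 FPKM in PC3-EMT14 to 135 in PC3-Epi, KLK10 runs the other way, and both inhibitors lie above 29 FPKM in every line.

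The median log2 ratio over the 7 members above 1 FPKM was 4.01 in PC3-Epi against PC3-EMT14, where the median over all genes was -0.01. It was 0.90 with OVOL1 and 1.69 with OVOL2, beside -0.00 and -0.04 for all genes. The members' median thus lay above that of all genes in each of these comparisons, while KLK10 lay below it.

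RefSeq upstream sequence was at hand for 4 of the 9 genes, SPINT1, KLK6, KLK10 and HPN, in 6 windows of 250 bases before an annotated start (build GRCh38.p14). ST14, PRSS8, PRSS22, SPINT2 and TMPRSS4 had no window. Each window was matched to a single place in GRCh37, the sequence of the hg19 build used for the files, and the stretches below are the parts that lie outside every annotated exon. They show the bases upstream of an inhibitor and a kallikrein that were higher in PC3-Epi and with OVOL2, and of hepsin, which was close to 0 in all lines. Capitals mark CAGGTG on either strand (CACCTG when read on the other), the E-box bound by ZEB1, a repressor of epithelial genes. All run 5′ to 3′ on the strand of the gene.
SPINT1, chr15:41135996-41136215, plus strand: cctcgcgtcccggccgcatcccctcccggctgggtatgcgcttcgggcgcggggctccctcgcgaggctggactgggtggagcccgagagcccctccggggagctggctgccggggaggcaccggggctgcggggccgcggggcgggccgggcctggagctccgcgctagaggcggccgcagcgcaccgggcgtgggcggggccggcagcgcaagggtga
KLK6, chr19:51472930-51473097, minus strand: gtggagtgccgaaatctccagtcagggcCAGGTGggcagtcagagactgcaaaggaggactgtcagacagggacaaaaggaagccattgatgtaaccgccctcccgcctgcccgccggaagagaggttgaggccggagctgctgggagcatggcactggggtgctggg
HPN, chr19:35532375-35532624, plus strand: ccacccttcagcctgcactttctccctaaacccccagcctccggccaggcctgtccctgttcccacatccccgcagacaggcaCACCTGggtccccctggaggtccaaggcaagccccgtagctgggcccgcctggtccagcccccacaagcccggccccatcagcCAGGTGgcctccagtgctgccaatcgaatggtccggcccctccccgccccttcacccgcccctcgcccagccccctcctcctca

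The SPINT1 stretch is 80.9% G and C, against a median of 58.0% over all 250-base windows, and holds no CAGGTG. In KLK6 the E-box stands 222 to 217 bases before the RefSeq start, which lies 82 bases inside the listed gene. The HPN window lies after the outermost listed start of its gene and holds a pair, at 167 to 162 and at 84 to 79 bases before its start. Of the 6 windows, 3 held CAGGTG, which 17.5% of all 35116 windows held. The third of these is a second SPINT1 start, whose E-box lies 26 to 21 bases before it and whose window overlaps exons. CCGTTA, a core of the site bound by OVOL proteins, stood in none of the 6 windows and in 2.45% of all windows. Other forms of that core, which the study's consensus also allows, were not searched. AACCGGTT, the site of grainyhead-like factors, stood in none of them and in 0.117% of all. These matches describe the letters in the windows only.

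ST14 had the widest range of the 9 genes. The gene lies at chr11:130029682-130080257 on the plus strand (hg19), and the tables list 1 isoform of it. Its level was 0.532 FPKM in PC3-EMT14, 28.9 in the OVOL1 line, 55.8 in the OVOL2 line and 135 in PC3-Epi. PC3-EMT14 was thus below the 1 FPKM minimum and the other lines far above it. The ratio to PC3-EMT14 was 55.6-fold in the OVOL1 line (log2 5.80), 108-fold in the OVOL2 line (log2 6.76) and 255-fold in PC3-Epi (log2 7.99). Since the PC3-EMT14 level is low, these folds depend on it, and on the log2(FPKM + 1) scale the ratios were 4.30, 5.23 and 6.48. Among all genes with a ratio, the folds stood 8 from the highest of 12111, 7 from the highest of 12226 and 17 from the highest of 12344. In PC3-EMT14 the gene ranked at percentile 45.2 of all entries by FPKM, and in PC3-Epi at percentile 97.5.

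The genes most like ST14 over the 3 ratios to PC3-EMT14, by the root mean square difference in log2 ratio among 11988 genes, were C1orf210, ATP2C2, LCN2, FUT3 and LOC728643. Their differences from ST14 ran from 0.487 to 0.682 on the log2 scale. LCN2, which encodes the iron-carrier-binding protein lipocalin 2, had log2 ratios of 7.42 in PC3-Epi, 5.94 with OVOL1 and 6.03 with OVOL2.

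PRSS8, which encodes the membrane-bound protease prostasin, lies at chr16:31142754-31147151 on the minus strand. It was at 1.63 FPKM in PC3-EMT14, 4.71 in the OVOL1 line, 8.07 in the OVOL2 line and 26.2 in PC3-Epi. The order of the lines was that of ST14, over a smaller range. The log2 ratio to PC3-EMT14 was 1.56 in the OVOL1 line, 2.35 in the OVOL2 line and 4.01 in PC3-Epi, the last of these 16.1-fold. MYST1, a histone acetyltransferase gene listed 40 bases away, had log2 ratios of 0.30 in the OVOL1 line, 0.18 in the OVOL2 line and 0.08 in PC3-Epi, none of them past 2-fold.

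PRSS22 encodes a secreted tryptase-like protease and lies at chr16:2902728-2908171 on the minus strand. Its level was 0.338 FPKM in PC3-EMT14, 1.47 in the OVOL1 line, 2.19 in the OVOL2 line and 9.90 in PC3-Epi. The fold over PC3-EMT14 was 4.45 in the OVOL1 line, 6.68 in the OVOL2 line and 29.3 in PC3-Epi. Because these levels are low, adding 1 FPKM to both values brings the log2 ratio with OVOL1 from 2.15 to 0.89, below 2-fold.

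TMPRSS4 and HPN, which encode membrane serine proteases of the same type as matriptase, were close to 0. TMPRSS4 (chr11:117947727-117990556, plus strand) was at 0.0159 FPKM in PC3-EMT14, 0.00432 in the OVOL1 line, 0.0123 in the OVOL2 line and 0.516 in PC3-Epi. HPN (chr19:35531410-35597208, plus strand), the gene of hepsin, whose listed locus runs past its annotated end at 35557477, was at 0.00956, 0 as listed, 0.00808 and 0.00921 FPKM in that order. Neither was used for a ratio, and in the low lines the isoform values of both are too small to read. FXYD3, an ion transport regulator gene listed 9524 bases from HPN, was at 0.315 FPKM in PC3-EMT14, 17.8 in the OVOL1 line, 47.2 in the OVOL2 line and 36.9 in PC3-Epi, so a close neighbour of hepsin was higher in all 3 lines while hepsin stayed near 0.

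KLK6 and KLK10, both in the kallikrein cluster, differed between the lines in opposite directions. KLK6 (chr19:51461887-51472929, minus strand) was at 2.20 FPKM in PC3-EMT14, 3.57 in the OVOL1 line, 6.88 in the OVOL2 line and 47.7 in PC3-Epi. KLK10 (chr19:51516000-51523431, minus strand) was at 6.26 FPKM in PC3-EMT14, 2.82 in the OVOL1 line, 2.53 in the OVOL2 line and 0.659 in PC3-Epi. KLK6 was thus highest in PC3-Epi and KLK10 highest in PC3-EMT14.

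The log2 ratio of KLK6 to PC3-EMT14 was 0.73 in the OVOL1 line, short of 2-fold, 1.69 in the OVOL2 line and 4.44 in PC3-Epi. That of KLK10 was -1.12 in the OVOL1 line, -1.26 in the OVOL2 line and -3.25 in PC3-Epi. The ratio of KLK6 to KLK10 FPKM was 0.351 in PC3-EMT14, 1.27 in the OVOL1 line, 2.71 in the OVOL2 line and 72.4 in PC3-Epi. On a scale of log2(FPKM + 1) KLK10 no longer passed 2-fold with OVOL1 (-0.90), and with OVOL2 it came just short of it.

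**Figure D2:**
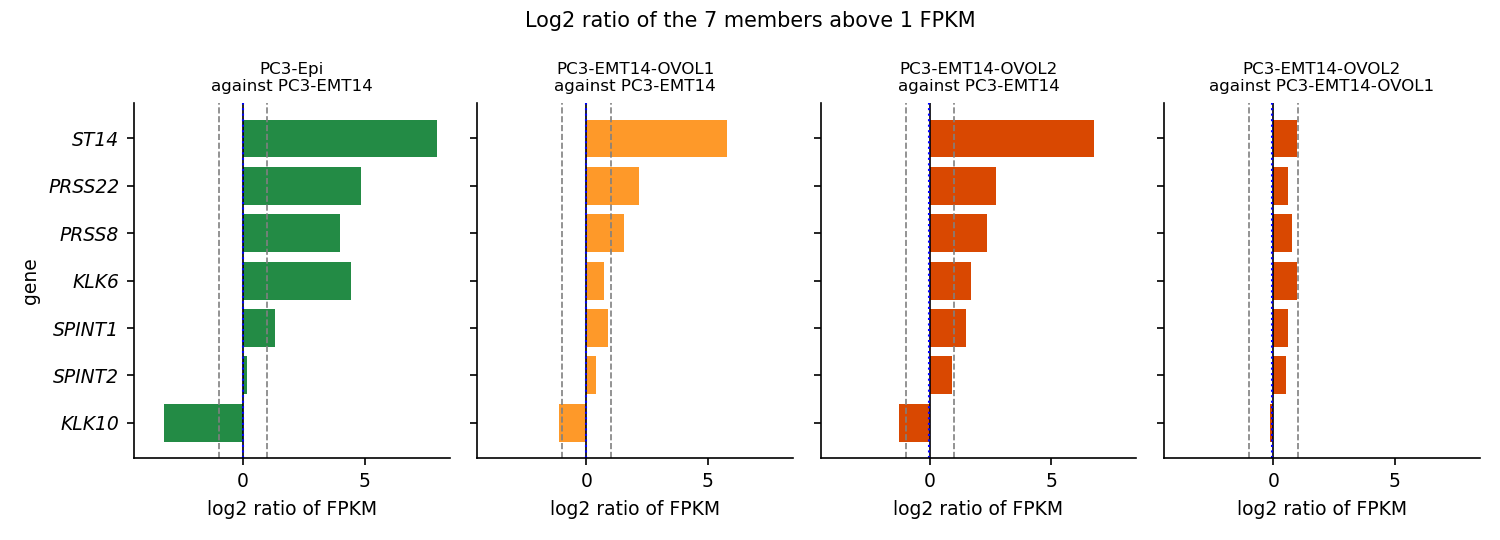
Log2 ratio of FPKM for the 7 members above 1 FPKM in each of the 4 comparisons, with dashed lines at 2-fold and a dotted line at the median of all genes. ST14 has the longest bar against PC3-EMT14 in all 3 comparisons, KLK10 points down, and no bar reaches 2-fold between the OVOL lines.

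Read along the chromosome, the kallikrein genes fell into runs. The order was looked at after the values were seen. In PC3-Epi against PC3-EMT14 the consecutive genes KLK5, KLK6, KLK7 and KLK8 had log2 ratios of 6.15, 4.44, 3.57 and 4.10. The consecutive genes KLK10 to KLK14 had ratios of -3.25, -3.20, -2.18, -3.83 and -1.58. KLK7, KLK12 and KLK13 were below 1 FPKM in both lines and were not counted. Of all 15 kallikreins 7 passed the minimum in this comparison, with 3 higher and 4 lower, beside 7.37% and 8.34% of all genes. KLK5, a trypsin-like kallikrein of the skin, was at 0.687 FPKM in PC3-EMT14, 1.31 in the OVOL1 line, 1.28 in the OVOL2 line and 48.6 in PC3-Epi. With the OVOL factors, then, KLK5 lay below 2-fold (log2 0.96 and 0.95) while KLK6 passed it with OVOL2 only.

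**Figure D3:**
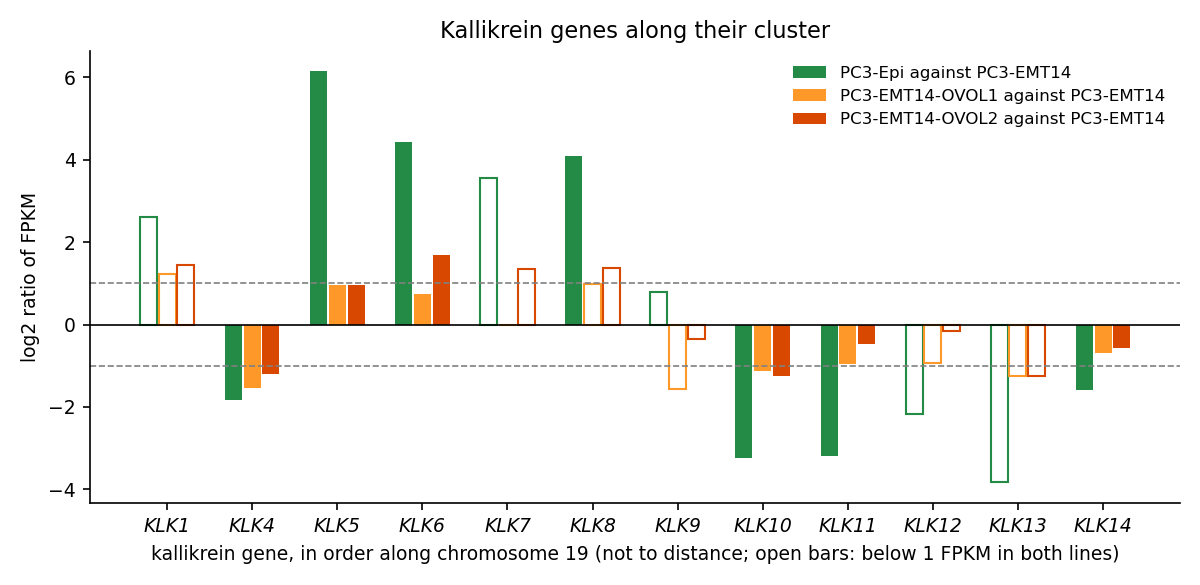
Log2 ratio of FPKM to PC3-EMT14 (vertical axis) for the 12 kallikrein genes above 0 in some line, in their order along chromosome 19, with dashed lines at 2-fold; open bars are genes below 1 FPKM in both lines. The bars of KLK5 to KLK8 point up in PC3-Epi and those of KLK10 to KLK14 point down.

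Beside the 2 members, 13 other kallikreins were measured. In PC3-Epi 2 of the 5 above the minimum were higher and 3 lower than in PC3-EMT14, beside 7.37% and 8.34% of all genes. With either OVOL factor 1 of 4 was lower and none higher. Beside this, 1.54% of all genes were lower and 2.43% higher with OVOL1, and 2.93% and 4.42% with OVOL2. KLK4, a prostate kallikrein, was lower in all 3 comparisons, at 1.10 FPKM in PC3-EMT14, 0.366 in the OVOL1 line, 0.461 in the OVOL2 line and 0.306 in PC3-Epi. KLK11 was at 0.467 FPKM in PC3-Epi and 4.31 in PC3-EMT14. KLK8, which encodes neuropsin, was at 2.42 against 0.141 FPKM. KLK2, KLK3 and KLK15 were listed at 0 in every line.

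The inhibitors had smaller ratios to PC3-EMT14 than ST14, PRSS8 and PRSS22 in each of the 3 comparisons, but not than every protease, since with OVOL1 KLK6 (log2 0.73) lay below SPINT1 (0.90) and KLK10 was lower throughout. SPINT1 (chr15:41136246-41149853, plus strand), the inhibitor paired with matriptase in epithelia, was at 29.6 FPKM in PC3-EMT14, 54.0 in the OVOL1 line, 80.4 in the OVOL2 line and 74.3 in PC3-Epi. Its fold over PC3-EMT14 was 1.86 in the OVOL1 line, 2.80 in the OVOL2 line and 2.51 in PC3-Epi. An antisense gene, SPINT1-AS1, is annotated at its start, and without strand its reads could not be told apart from those of SPINT1. The SPINT1 level with OVOL2 was 112% of that in PC3-Epi, and with OVOL1 74.3%.

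SPINT2 (chr19:38755098-38783254, plus strand), its broader-acting relative, was at 182 FPKM in PC3-EMT14, 233 in the OVOL1 line, 329 in the OVOL2 line and 204 in PC3-Epi. None of its ratios passed 2-fold, the highest being 1.87-fold with OVOL2. PC3-EMT14 already held 89.1% of the PC3-Epi level. The genes most like SPINT1 over the 3 ratios were TMC6, LLGL2, IRS2, ELF3 and RAET1L, with differences of 0.027 to 0.092 on the log2 scale. LLGL2, a cell polarity gene, had log2 ratios of 1.35 in PC3-Epi, 0.86 with OVOL1 and 1.47 with OVOL2, and ELF3, an epithelial transcription factor gene, 1.24, 0.90 and 1.41.

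Among the chosen genes, the balance between protease and inhibitor transcripts differed between the lines. FPKM of ST14 per FPKM of SPINT1 was 0.0179 in PC3-EMT14, 0.535 in the OVOL1 line, 0.694 in the OVOL2 line and 1.82 in PC3-Epi. The 7 proteases summed to 11.0 FPKM in PC3-EMT14, 41.5 in the OVOL1 line, 75.5 in the OVOL2 line and 221 in PC3-Epi. The 2 inhibitors summed to 212, 287, 409 and 279 FPKM in that order. Inhibitor FPKM per protease FPKM was thus 19.2 in PC3-EMT14, 6.91 in the OVOL1 line, 5.42 in the OVOL2 line and 1.26 in PC3-Epi. These are transcript levels per length, not amounts of protein. The sums cover these 7 proteases and 2 inhibitors only, and the ratio depends on that choice. Whether the inhibitors block each of these proteases was not tested. Outside them, PRSS3 was at 259, 208, 161 and 94.3 FPKM in the same order, and the inhibitor gene PI3 at 239, 1203, 2619 and 265. KLK10 made up 57.0% of the protease sum in PC3-EMT14, whereas ST14 made up 69.7% in the OVOL1 line, 73.9% in the OVOL2 line and 61.4% in PC3-Epi.

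**Figure D4:**
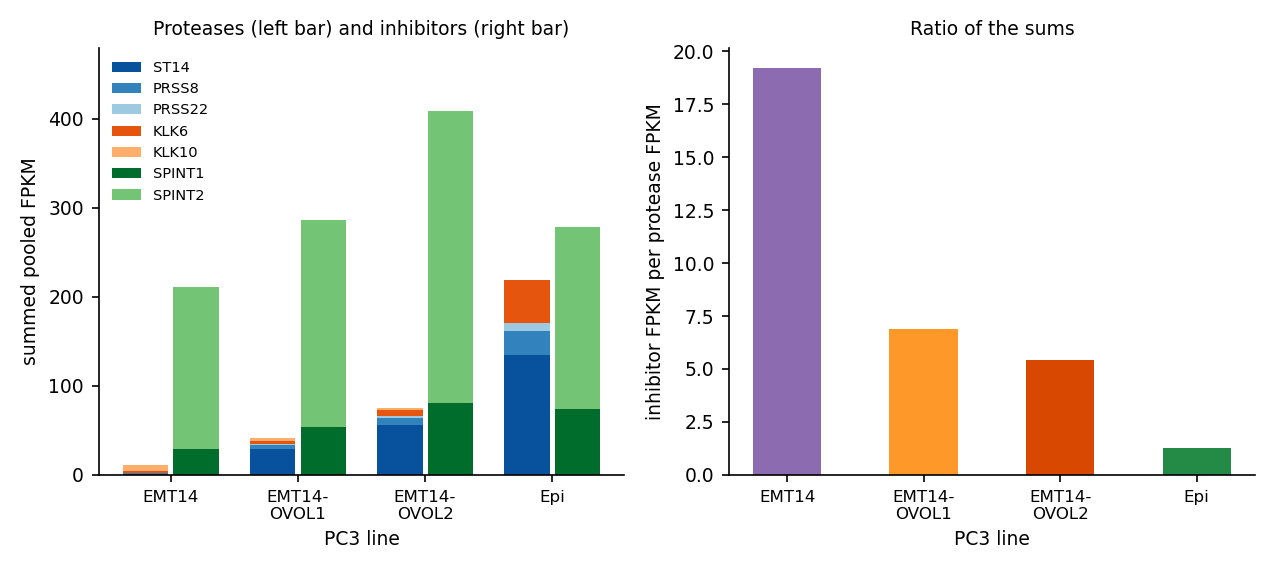
Left, pooled FPKM of the proteases and of the inhibitors, stacked by gene, in each line; TMPRSS4 and HPN are too low to draw. Right, summed inhibitor FPKM divided by summed protease FPKM, which runs from 19.2 in PC3-EMT14 to 1.26 in PC3-Epi.

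With OVOL1 or OVOL2 the 4 proteases that were higher in PC3-Epi stayed below their PC3-Epi levels. ST14 reached 21.8% of the PC3-Epi level with OVOL1 and 42.6% with OVOL2. PRSS8 reached 18.3% and 31.8%, PRSS22 15.2% and 22.8%, and KLK6 7.65% and 14.9%. KLK10 was at 437% and 397% of the PC3-Epi level, against 951% in PC3-EMT14. Measured instead as a share of the log2 distance from PC3-EMT14 to PC3-Epi, ST14 covered 72.5% with OVOL1 and 84.6% with OVOL2. On that scale PRSS8 covered 39.0% and 58.7%, PRSS22 44.2% and 56.2%, KLK6 16.4% and 38.1%, and KLK10 34.5% and 38.8%. No spread is known for any of these shares.

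OVOL2 and OVOL1 were compared directly in their own table. None of the 7 members was past 2-fold in either direction, beside 1.90% of 12188 genes higher with OVOL2 and 1.17% lower. The level with OVOL2 was nonetheless above that with OVOL1 in 6 of the 7, beside 42.5% of all genes. The log2 ratio was 0.96 for ST14, 0.96 for KLK6, 0.79 for PRSS8, 0.59 for SPINT1, 0.59 for PRSS22 and 0.51 for SPINT2. ST14 and KLK6, at 1.95-fold, were just inside the 2-fold limit. KLK10 had a log2 ratio of -0.14. The members' median was 0.59 and that of all genes -0.04. The OVOL1 and OVOL2 transcripts themselves differed in level between the lines, as given above, and their part in the difference was not tested.

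Isoform shares differed between the lines in SPINT1, KLK6 and KLK10, which have at least 2 isoforms above 0 in the tables. Some of these shares rest on low values, since KLK10 totalled 0.659 FPKM in PC3-Epi and KLK6 2.20 FPKM in PC3-EMT14. In KLK6, isoform TCONS_00018273 made up 26.7% of the gene's isoform FPKM in PC3-EMT14, 62.1% in the OVOL1 line, 77.4% in the OVOL2 line and 92.6% in PC3-Epi. That isoform was at 0.587 FPKM in PC3-EMT14 and 44.2 in PC3-Epi, while TCONS_00018272 was at 1.61 and 3.52. Most of the KLK6 difference was thus listed under 1 isoform. In SPINT1, TCONS_00011047 made up 14.0% in PC3-EMT14, 25.6% in the OVOL1 line, 26.2% in the OVOL2 line and 49.1% in PC3-Epi. Isoform TCONS_00011045 of SPINT1 was at 13.1 FPKM in PC3-EMT14 and 13.4 in PC3-Epi. In KLK10, TCONS_00018281 made up 51.7% in PC3-EMT14, 24.5% in the OVOL1 line, 9.32% in the OVOL2 line and 38.6% in PC3-Epi. SPINT2 was listed mostly under TCONS_00016643, at 95.5% to 98.2% of its isoform FPKM, and ST14, PRSS8 and PRSS22 had a single isoform. The tables give no exons for these isoforms, and isoform FPKM are model estimates whose error is unknown here.

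**Figure D5:**
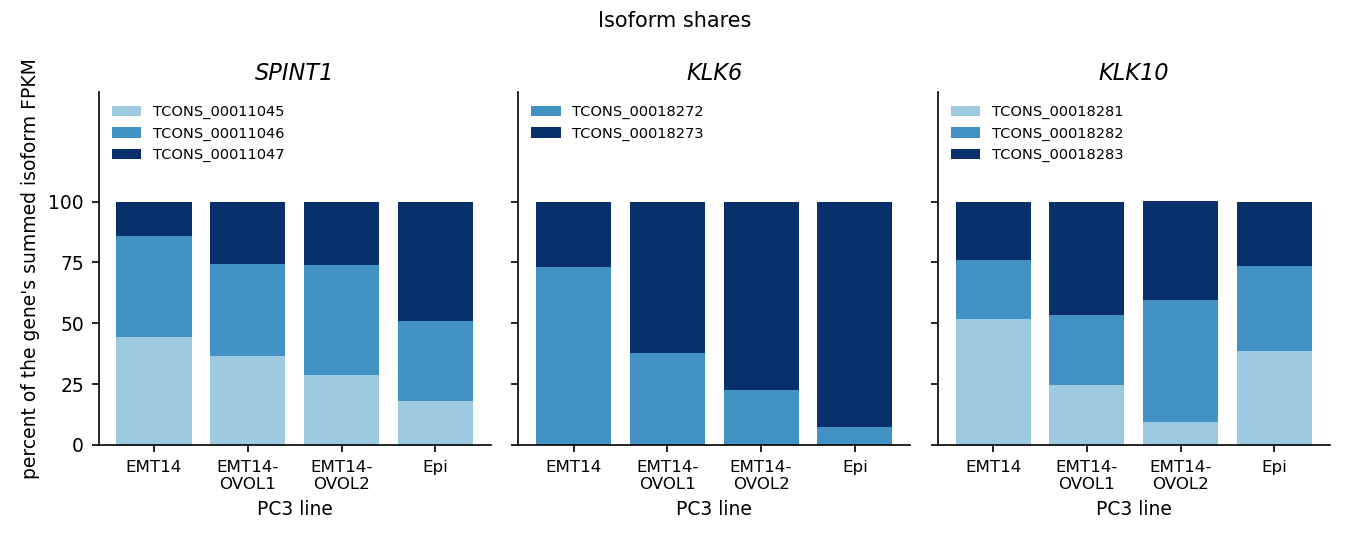
Percent of each gene's summed isoform FPKM (vertical axis) listed under each isoform, for SPINT1, KLK6 and KLK10 in the 4 lines. The darkest band of KLK6 grows from 26.7% in PC3-EMT14 to 92.6% in PC3-Epi.

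The other membrane serine proteases of the matriptase type were mostly below 1 FPKM. Of 15 such genes, 2 passed the minimum in PC3-Epi against PC3-EMT14 and both were higher, beside 7.37% of all genes. With either OVOL factor 1 passed and was not past 2-fold. Beside this, 2.43% of all genes were higher and 1.54% lower with OVOL1, and 4.42% and 2.93% with OVOL2. TMPRSS2, a membrane protease gene of prostate epithelium, was at 0.967 FPKM in PC3-EMT14, 1.43 in the OVOL1 line, 1.66 in the OVOL2 line and 5.50 in PC3-Epi. TMPRSS13 reached 1.17 FPKM in PC3-Epi, and TMPRSS3 was at most 0.515 FPKM.

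Of 14 other PRSS and tryptase genes, 6 passed the minimum in PC3-Epi against PC3-EMT14. There 1 was higher and 2 were lower, beside 7.37% and 8.34% of all genes. With each OVOL factor 5 passed, none of them past 2-fold. Of all genes, 2.43% were higher and 1.54% lower with OVOL1, and 4.42% and 2.93% with OVOL2. The gene higher in PC3-Epi was PRSS1, which encodes a trypsinogen and is named after its values were seen, at 2.72 FPKM against 0.0504. PRSS3, which encodes mesotrypsin and has near-identical trypsinogen relatives that can share its reads, was at 259 FPKM in PC3-EMT14, 208 in the OVOL1 line, 161 in the OVOL2 line and 94.3 in PC3-Epi. PRSS23 was at 21.1, 13.2, 15.1 and 39.5 FPKM in that order, and PRSS35 between 3.35 and 4.32 FPKM.

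Among 14 other Kunitz, Kazal and whey-acidic-protein inhibitors, 3 of the 5 above the minimum were higher with each OVOL factor. In PC3-Epi 1 of 4 was higher and 2 were lower, beside 7.37% and 8.34% of all genes. SLPI, which encodes an inhibitor of leukocyte elastase, was higher in all 3 comparisons, at 25.9 FPKM in PC3-EMT14, 215 in the OVOL1 line, 347 in the OVOL2 line and 157 in PC3-Epi. PI3, which encodes elafin, was at 239 FPKM in PC3-EMT14, 1203 in the OVOL1 line, 2619 in the OVOL2 line and 265 in PC3-Epi. PI3 was thus past 2-fold with both OVOL factors and not in PC3-Epi, where its level was close to that in PC3-EMT14. TFPI2 was at 97.2 FPKM in PC3-EMT14, 51.1 in the OVOL1 line, 83.6 in the OVOL2 line and 7.79 in PC3-Epi.

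Of 14 substrates and partners of these proteases, 11 passed the minimum in PC3-Epi, with 3 higher and 4 lower than in PC3-EMT14. Of all genes, 7.37% were higher and 8.34% lower there. With OVOL1 2 of 9 were higher, with OVOL2 3 of 10, and none was lower. Beside these stood 2.43% and 4.42% of all genes higher, and 1.54% and 2.93% lower. EPCAM, which encodes an epithelial surface protein cleaved by matriptase, was higher in all 3 comparisons. EPCAM was at 23.4 FPKM in PC3-EMT14, 87.6 in the OVOL1 line, 151 in the OVOL2 line and 224 in PC3-Epi. CDCP1, another surface substrate, was at 106, 76.5, 78.3 and 39.4 FPKM. PLAU, which encodes urokinase, was at 984 FPKM in PC3-EMT14, 2016 with OVOL2 and 927 in PC3-Epi. Its entry with OVOL1 is listed at 0 with a status that marks too much data to estimate, so it was not counted and no ratio is given.

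Within 100 kb of the members lay 71 listed neighbour genes. In PC3-Epi against PC3-EMT14, 42 were above the minimum. Of these, 3 were higher (7.14%) and 7 lower (16.7%), beside 7.37% and 8.34% of all genes. Their median log2 ratio was -0.40, beside -0.01 for all genes. With OVOL1 1 of 41 was higher and 1 lower (2.44% each), beside 2.43% and 1.54% of all genes. With OVOL2 1 of 41 was higher (2.44%) and 2 lower (4.88%), beside 4.42% and 2.93%. The neighbours past 2-fold included kallikreins (KLK4, KLK5, KLK8, KLK11 and KLK14), FXYD3 beside HPN, C19orf33 and SPRED3 near SPINT2, and FLYWCH1 near PRSS22. No neighbour of ST14, SPINT1 or PRSS8 passed 2-fold in any comparison, and ST14 had only APLP2 and ZBTB44 listed as neighbours. The listed neighbours of TMPRSS4 were below 1 FPKM in every line, so none of them could be counted.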

How the data were processed

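RNA-seq of 10 samples was deposited by the authors as 8 tables, a gene and an isoform table for each of 4 pairs of lines. The authors aligned paired-end reads to hg19 with TopHat and estimated FPKM with Cuffdiff, which pools a group's samples into 1 deposited FPKM, with upper-quartile scaling and corrections for multiply mapped reads and sequence bias. The columns of fold change, test statistic, p and q hold the authors' own comparisons and were not used. No column with values per sample was left unused (0). Inside the tables PC3-EMT14 and PC3-Epi go by other names, and they were matched to the labelled lines through the pair of lines each table is said to compare. Strandedness of the counting is not given in the sources used here.

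Ratios were computed within each table without a pseudocount (Python 3.11.15, pandas 2.3.3, numpy 2.4.6), and the ratio code was tested on simulated data. Genes needed 1 FPKM in the higher line, and the 2-fold limit is that of the study. All entries were used whatever their status, except that entries with too much data to estimate were left out of gene lists. Alternatives were a minimum of 5 FPKM or none, pseudocounts of 0.1 and 1, folds of 1.5 and 4, status OK only, centring on the median of all genes, and summed isoforms. All members are named. From each list the 3 genes highest in any line and those past 2-fold the same way against PC3-EMT14 in all 3 comparisons are named, as are the 5 genes most like ST14 and SPINT1 and neighbours past 2-fold; some genes that these rules take are counted but not reported here by name. Members, lists and rules were chosen with earlier results of these data known. Protein sequences were not analysed here.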

Additional observations from a re-analysis of the deposited data

How the results depend on the processing

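No paired analysis was possible because the tables hold 1 pooled value a line, and for the same reason no replicate could be left out and no depth or spread stands behind any ratio. Of 64 alternative counts of members past the limit, 53 stayed within 1.5 times of the reported count. Of 197 alternative log2 ratios, 192 kept their direction and their side of 2-fold, and none changed direction. Much of this was fixed in advance. The settings for status and for minimum FPKM reuse the reported ratio, and a pseudocount cannot reverse a direction.

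With OVOL1 against PC3-EMT14, members higher numbered 1 with a minimum of 5 FPKM and 5 at 1.5-fold, beside 1.67% and 4.67% of all genes. Members lower numbered 2 with no minimum (7.01% of genes), 0 at 4-fold (0.533%) and 0 on the log2(FPKM + 1) scale (0.803%). With OVOL2 against PC3-EMT14, members higher numbered 3 at 4-fold, beside 1.89% of all genes. Members lower there numbered 0 at 4-fold (0.837% of genes) and 0 on the log2(FPKM + 1) scale (1.76%). With OVOL2 against OVOL1, members higher numbered 1 with no minimum and 5 at 1.5-fold, beside 8.08% and 4.74% of all genes. When centred on the median of all genes they numbered 2, beside 2.07%. There ST14 and KLK6 reached a log2 ratio of 1.00. A wider or narrower limit changes a count by its own construction. The share of all genes past the limit, 1.17% to 8.34% by comparison and direction, was 2.70% to 13.8% with no minimum, 0.803% to 5.72% on the log2(FPKM + 1) scale, 2.72% to 16.3% at 1.5-fold and 0.361% to 3.29% at 4-fold.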
